A study of Mus musculus with 6 samples.

Results

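The vacuolar proton pump, or V-ATPase, genes were taken here as every gene whose symbol starts with Atp6v0 or Atp6v1 and whose exons could be read in the deposited counts. Kidney RNA of C57BL/6 mice at postnatal day 21 had been sequenced as 6 libraries, of which 3 carry the diagnosis healthy and 3 the diagnosis acute renal failure (ARF). The labels call the healthy libraries controls and the ARF libraries treated, and the cause of the renal failure is not stated in them. They name no genetic alteration, and they do not say whether each library came from a separate mouse, so p-values measure only the spread between these libraries. The deposited rows carried gene names that did not match where their intervals lie on GRCm38, so each row was given to the gene whose exons it covers and its name was ignored. In this way 14 of 23 annotated pump genes were read, among 9519 genes read in all.

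The V-ATPase is a rotary enzyme that spends ATP to move protons across membranes. Its V1 sector, in the cytosol, hydrolyses ATP, and its V0 sector, in the membrane, carries the protons. It acidifies lysosomes and endosomes in every cell, and in the kidney it also sits in the plasma membrane of intercalated cells of the collecting duct, where it secretes acid into urine, and in the apical endocytic compartment of the proximal tubule.

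Only part of most genes was counted, as the plot of counted exon bases shows. Atp6v0d2 was counted over 2539 of 2539 exon bases and Atp6v1f over 1059 of 1063. The others were counted over fewer, down to 66 of 1312 bases for Atp6v1e1 and 81 of 1135 for Atp6v1g1, so levels were compared between libraries and never between genes. Rows also cover introns and stretches outside genes, and reads falling there were counted with the exon. Some also run through other genes outside those genes' own exons: the Atp6v1h row has 2868 of 4239 bases within Rgs20, the Atp6v1a row 2410 of 5623 within Gramd1c and Naa50, the Atp6v1e1 row 2105 of 4110 within Slc25a18 and the Atp6v0a4 row 2191 of 4973 within Svopl. Reads of those genes' introns may be in these values, which was not tested. Counting ignored strand, per the file headers, so reads from a gene on the opposite strand cannot be told apart.

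**Figure D1:**
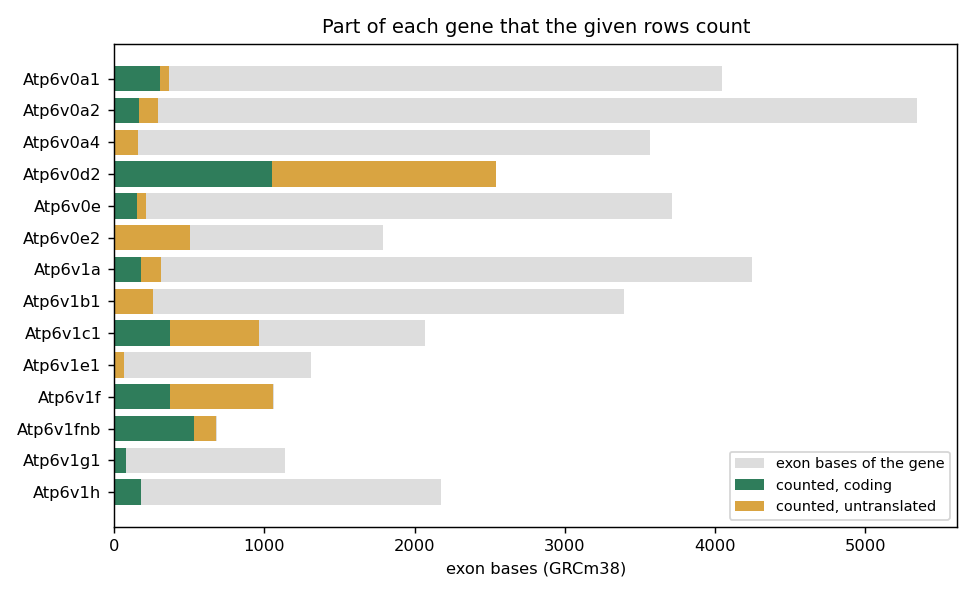
Exon bases of each vacuolar proton pump gene on GRCm38 (horizontal axis, bases), with the coding and untranslated bases covered by its deposited rows in green and orange and the rest in grey. Atp6v0d2, Atp6v1f and Atp6v1fnb are covered nearly whole, and the other genes in part.

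The 4 stretches given here show what the counts of genes hidden under other names rest on. In each, capitals mark the coding bases that a deposited row counts, and the sequence is the coding part of 1 exon of a GENCODE M21 transcript on GRCm38, in the gene's direction. The exon of Atp6v1a, the subunit that hydrolyses ATP, is exon 9 of 15 at chr16:44101763-44101885 on the minus strand, in a row named Sidt1. The exon of Atp6v0e, a small membrane subunit, is exon 2 of 4 at chr17:26682678-26682725 on the plus strand, in a row named Gm50269. The exon of Atp6v1h, a regulatory subunit, is exon 10 of 14 at chr1:5133084-5133262 on the plus strand, in a row named Rgs20. The exon of Atp6v1g1, a stalk subunit, is the last of 3 at chr4:63549945-63550115 on the plus strand, in a row named Gm24234 that ends inside it.
Atp6v1a exon: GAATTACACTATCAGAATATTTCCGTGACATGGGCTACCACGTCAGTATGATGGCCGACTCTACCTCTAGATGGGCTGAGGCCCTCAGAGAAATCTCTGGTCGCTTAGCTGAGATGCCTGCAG
Atp6v0e exon: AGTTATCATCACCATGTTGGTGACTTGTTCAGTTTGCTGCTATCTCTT
Atp6v1h exon: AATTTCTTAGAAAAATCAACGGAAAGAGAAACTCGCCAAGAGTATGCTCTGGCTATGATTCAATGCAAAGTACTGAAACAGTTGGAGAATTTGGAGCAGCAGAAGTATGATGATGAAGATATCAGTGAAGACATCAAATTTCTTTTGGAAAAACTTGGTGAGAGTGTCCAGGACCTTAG
Atp6v1g1 exon: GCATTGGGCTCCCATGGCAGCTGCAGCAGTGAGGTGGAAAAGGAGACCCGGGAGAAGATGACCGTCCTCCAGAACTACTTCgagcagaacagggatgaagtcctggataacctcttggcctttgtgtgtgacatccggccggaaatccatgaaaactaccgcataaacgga

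Library totals ran from 2873370 to 6191479 counts, with the lowest in healthy replicate 2. Genes typical of kidney tubules were well read: the 10 proximal tubule markers read, of 26 listed, summed to between 15284 and 23067 CPM (a count relative to the library total, scaled as usual) in the healthy libraries and to between 6563 and 7308 in ARF. The 5 principal cell markers read, of 12, summed to between 5584 and 6969 CPM in healthy and between 12665 and 14667 in ARF. In RNA of whole tissue, fewer cells of a type and less RNA per cell cannot be told apart. CPM here is scaled with TMM, edgeR's correction for differences in library composition. A gene was called where edgeR's quasi-likelihood test gave a Benjamini-Hochberg adjusted p under 0.05 over all 5246 genes tested.

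Of the 13 pump genes with enough counts to be tested, 8 rose in ARF, 2 fell and 3 were not called. The genes that rose were Atp6v0a4, Atp6v0d2, Atp6v0e, Atp6v1a, Atp6v1b1, Atp6v1e1, Atp6v1f and Atp6v1h, and those that fell were Atp6v0a1 and Atp6v1c1. Atp6v1b1 passed the filter on low counts only through its ARF libraries, so it had to differ, and it is left out of the shares that follow. Of the other 12, 7 were called higher, or 58.3% against 25.1% of all genes tested, and 2 lower, or 16.7% against 24.9%. Calls in either direction covered 50.0% of all genes. The 3 healthy and 3 ARF libraries did not overlap for 10 of these 12, against 60.2% of all genes. Their median log2 fold change (ARF minus healthy) was 0.41, beside 0.01 for all genes. Scaling by total count in place of TMM moved the median of all genes to 0.19 and their calls from 1319 higher and 1305 lower to 1749 higher and 1013 lower, and gave 9 of the 13 higher and 1 lower. Without healthy replicate 2 or without healthy replicate 3, 5 of the 13 were called higher. Without ARF replicate 1 or without ARF replicate 3, 1 was called lower.

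**Figure D2:**
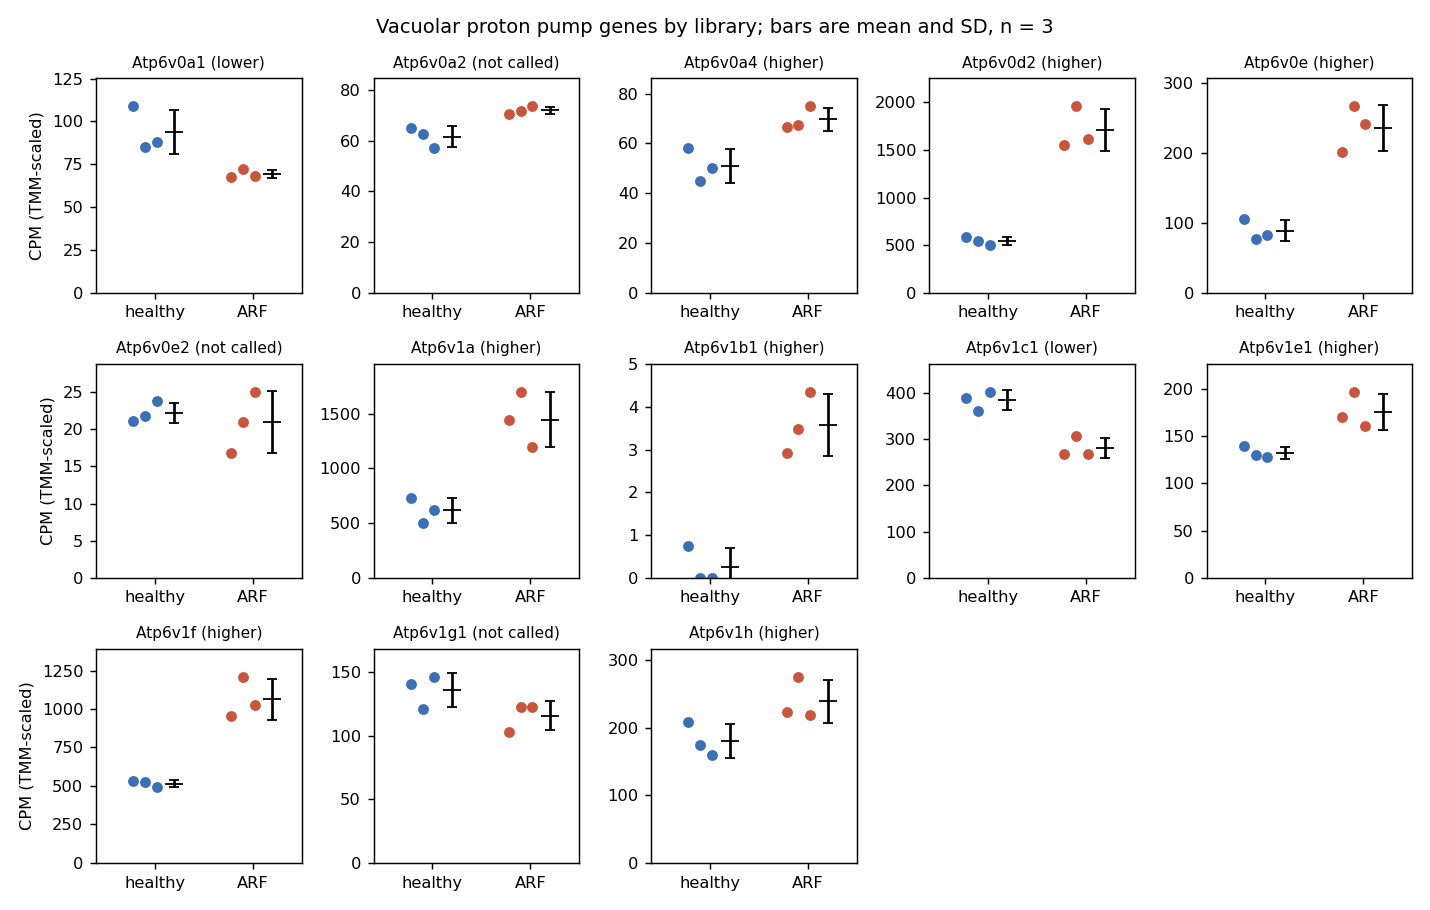
TMM-scaled CPM (vertical axis, linear from 0) of each tested pump gene in 3 healthy (blue) and 3 ARF (red) libraries, with mean and SD (n = 3) as bars. Groups overlap only for Atp6v0e2 and Atp6v1g1, both not called.

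In the membrane sector, the d subunit sits on the proton-carrying ring and couples it to the rotor, and Atp6v0d2 encodes its form found in kidney, osteoclasts and a few other tissues. Atp6v0d2, at chr4:19876841-19922605, was at 589, 541 and 502 CPM in the healthy libraries and at 1553, 1959 and 1617 CPM in ARF. Every ARF library lay far above every healthy one. The log2 fold change was 1.65 (SE 0.14; adjusted p = 4.55e-05, edgeR), and it stayed between 1.55 and 1.73 when any 1 library was left out. Its whole exon sequence was counted, in a row of its own name, with between 1488 and 11282 counts per library. Of 10 osteoclast markers, 3 were read: Calcr and Nfatc1 were called lower in ARF, and Tnfrsf11a was not called (log2 fold change -0.26). Their sum was between 34.5 and 45.4 CPM in healthy and between 18.7 and 22.8 in ARF. Which cells the Atp6v0d2 counts came from was not tested.

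The e subunit is a short hydrophobic protein of the membrane sector. Atp6v0e, at chr17:26663231-26699647, was at 106, 77.4 and 82.4 CPM in healthy libraries and at 201, 267 and 241 CPM in ARF, with no overlap. Its log2 fold change was 1.41 (SE 0.16; adjusted p = 0.000174, edgeR). This call rests on 1 of its rows. The Gm50269 row, holding the 48 bases of exon 2 printed above and 2290 bases of intron, gave 97.5% of the counts and a log2 fold change of 1.48. The Neurl1b row covers an upstream first exon of 161 bases found in 1 of 5 coding transcripts, where exon 2 is in 5 of 5. Of the 6331 bases of the Neurl1b row, 1932 lie in introns of Atp6v0e, 713 within Ergic1 and 3525 outside genes. This row held 20, 17 and 18 counts in healthy libraries and 16, 17 and 45 in ARF. Its log2 fold change was -0.23 (adjusted p = 0.683, edgeR on rows). The second gene for this subunit, Atp6v0e2, was not called, at 21.1, 21.8 and 23.8 CPM in healthy and 16.8, 21.0 and 25.1 CPM in ARF (log2 fold change -0.08, adjusted p = 0.737, edgeR), and its change was 0.10 with scaling by total count.

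The a subunit holds the channels through which protons enter and leave the membrane, and its isoforms decide which membrane a pump goes to. Atp6v0a4 encodes the isoform of intercalated and other renal epithelial cells, and its loss causes distal renal tubular acidosis. It was read over 158 untranslated exon bases in a row of its own name, at 58.2, 44.7 and 50.2 CPM in healthy libraries and 66.7, 67.2 and 74.8 CPM in ARF. The groups did not overlap, and the log2 fold change was 0.44 (SE 0.13; adjusted p = 0.0243, edgeR). A second row, named Tmem213, holds only 12 bases of an Atp6v0a4 exon with 619 of its introns and so lies just outside the minimum of 25 exon bases. It showed a log2 fold change of 0.53 (adjusted p = 0.0129, edgeR on rows). The call on Atp6v0a4 was lost without healthy replicate 2 (adjusted p = 0.0764), without healthy replicate 3 (0.0914) and without ARF replicate 3 (0.0712).

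Atp6v0a1, the widely expressed a isoform, moved the other way. It was at 109, 85.1 and 88.0 CPM in healthy libraries and at 67.5, 72.2 and 68.1 CPM in ARF, all 3 ARF libraries lying below the lowest healthy one. The log2 fold change was -0.44 (SE 0.13; adjusted p = 0.0189, edgeR). Its 2 rows gave -0.65 (Tubg1 row, 68 exon bases) and -0.35 (Plekhh3 row, 300 exon bases, adjusted p = 0.0576). The call was lost with scaling by total count (-0.27, adjusted p = 0.0913), without ARF replicate 1 (adjusted p = 0.0610) and without ARF replicate 3 (0.0569). Atp6v0a2, the isoform known from the Golgi and endosomes, was not called. It was at 65.0, 62.5 and 57.2 CPM in healthy and 70.5, 71.7 and 73.5 CPM in ARF (log2 fold change 0.22, adjusted p = 0.131, edgeR), and it was called higher when libraries were scaled by total count (0.40, adjusted p = 0.0156).

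A ratio of 2 genes within a library does not depend on how libraries are scaled. Counts on Atp6v0a4 stood to counts on Atp6v0a1 as 0.536, 0.526 and 0.570 in the healthy libraries and as 0.987, 0.930 and 1.10 in ARF. All 3 ARF ratios lay above all healthy ones, with a mean difference of 0.88 on the log2 scale (exact permutation test, two-sided, p = 0.1, the smallest that 3 against 3 libraries can give). These ratios set unequal lengths of exon against each other, so their change between groups can be read but their size cannot. The ratio of Atp6v0d2 to Atp6v0a1 went from between 5.42 and 6.36 in healthy to between 23.0 and 27.1 in ARF, a difference of 2.08 on the log2 scale (exact permutation p = 0.1). These pairs, and those of the V1 sector given with the C subunit, were chosen after their values were known. Each sets a gene called higher over a gene called lower, both without overlap between groups. The separation of the ratios, and with it p = 0.1 in the exact permutation test, was thereby fixed in advance.

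**Figure D3:**
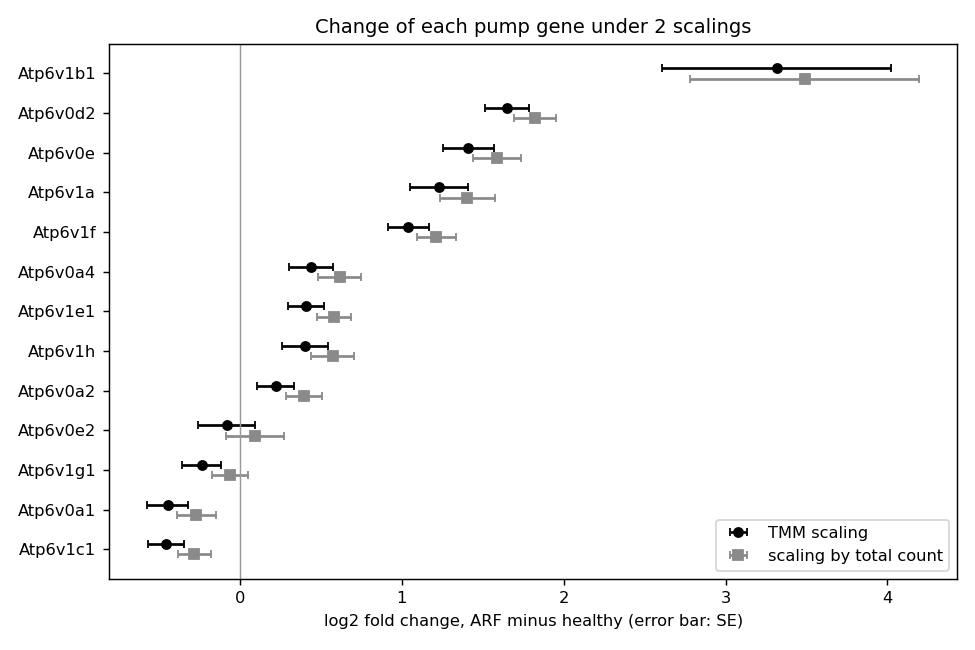
Log2 fold change (ARF minus healthy, horizontal axis) with SE for each tested pump gene, with TMM scaling in black and scaling by total count in grey. Total-count scaling shifts every gene to the right, and Atp6v0e2 lies on opposite sides of 0 under the 2 scalings.

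In the V1 sector, the A and B subunits form the head that binds ATP. Atp6v1a encodes the catalytic A subunit, the only gene for it, and was read over 310 of its 4248 exon bases. It was at 725, 504 and 616 CPM in healthy libraries and at 1441, 1701 and 1193 CPM in ARF. The lowest ARF library stood well above the highest healthy one, and the log2 fold change was 1.23 (SE 0.18; adjusted p = 0.000692, edgeR). It stayed between 1.09 and 1.36 when any 1 library was left out.

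Atp6v1b1 encodes the B isoform of intercalated cells and the inner ear, whose loss causes distal renal tubular acidosis with deafness. It was read over 257 untranslated exon bases and 3831 intronic bases under the name Tex261, an exon stretch found in 1 of 2 coding transcripts. It held 4, 0 and 0 counts in the healthy libraries and 17, 20 and 29 counts in ARF. All 3 ARF libraries lay above the healthy ones. The fitted log2 fold change of Atp6v1b1 was 3.31 (SE 0.71), given as a description because only its ARF counts brought it past the filter. With 4 counts in all the healthy libraries together, its size is loosely fixed, and it ran from 2.81 to 7.14 when 1 library was left out. The other B gene, Atp6v1b2, had no row on its exons.

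The F subunit is part of the rotor that turns inside the head. Atp6v1f, at chr6:29467718-29470512, was at 533, 524 and 492 CPM in healthy libraries and at 955, 1210 and 1023 CPM in ARF. The healthy libraries lay close together and every ARF library was far above them, with a log2 fold change of 1.04 (SE 0.13; adjusted p = 0.000263, edgeR), which stayed between 0.95 and 1.13 with any 1 library left out. With Atp6v0d2 it is 1 of the 2 subunit genes counted nearly whole and under its own name. Atp6v1fnb, which lies beside it, bears the name of a neighbour and is not known as a subunit. It held 2 counts in each group and was not tested.

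The E and G subunits form the stalks that keep the head from turning. Atp6v1e1, read over 66 untranslated bases, was at 140, 130 and 128 CPM in healthy and at 170, 198 and 161 CPM in ARF, without overlap (log2 fold change 0.41, SE 0.11, adjusted p = 0.0152, edgeR). Atp6v1g1 was not called, at 141, 121 and 147 CPM in healthy and 103, 122 and 122 CPM in ARF (log2 fold change -0.23, adjusted p = 0.131, edgeR), and its groups overlapped. The H subunit holds the free V1 sector inactive and joins it to the membrane. Atp6v1h was at 208, 174 and 160 CPM in healthy and at 223, 276 and 219 CPM in ARF, a narrow gap between groups (log2 fold change 0.40, SE 0.14, adjusted p = 0.0416, edgeR). The call on Atp6v1e1 was lost without healthy replicate 2 (adjusted p = 0.0513), healthy replicate 3 (0.0764) or ARF replicate 2 (0.0538). That on Atp6v1h was lost without healthy replicate 2 (0.119), healthy replicate 3 (0.177), ARF replicate 1 (0.0513) or ARF replicate 2 (0.127).

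The C subunit links the head to the membrane sector and leaves it when the pump is taken apart. Atp6v1c1, its widely expressed gene, fell: it was at 390, 361 and 403 CPM in healthy libraries and at 268, 307 and 268 CPM in ARF, with no overlap. The log2 fold change was -0.45 (SE 0.11; adjusted p = 0.00950, edgeR), and the call held when any 1 library was left out and under scaling by total count (-0.28, adjusted p = 0.0485). Within libraries, counts on Atp6v1a stood to those on Atp6v1c1 as 1.86, 1.39 and 1.53 in healthy and as 5.37, 5.55 and 4.45 in ARF, a difference of 1.69 on the log2 scale (exact permutation p = 0.1). For Atp6v1f against Atp6v1c1 the ratios were 1.37, 1.45 and 1.22 in healthy and 3.56, 3.95 and 3.82 in ARF, a difference of 1.49 on the log2 scale (exact permutation p = 0.1). Here too the choice of pairs fixed the separation in advance.

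**Figure D4:**
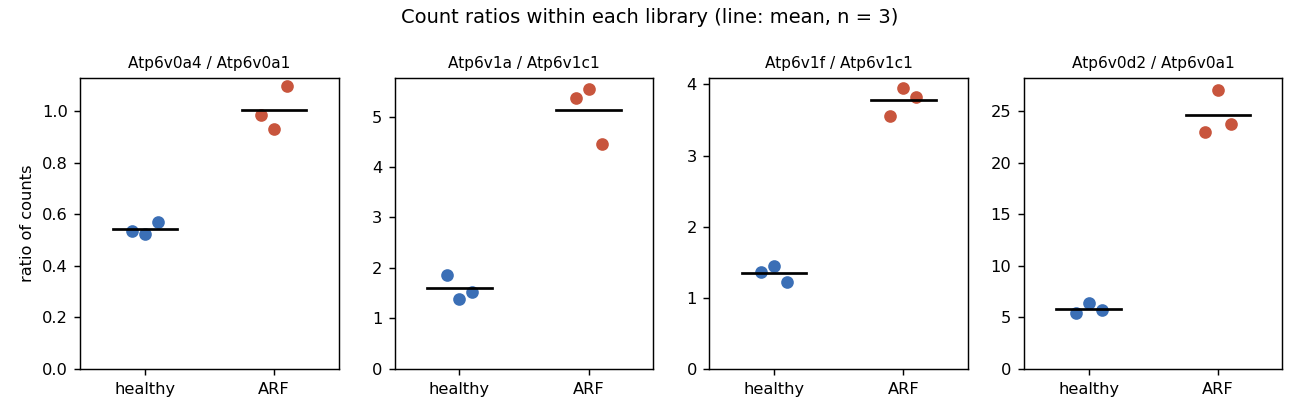
Ratio of the counts of 2 pump genes within each library (vertical axis, linear from 0) in healthy (blue) and ARF (red), with the mean of 3 as a line. All 3 ARF ratios lie above the healthy ones in each of the 4 pairs, which follows from setting a gene that rose over a gene that fell.

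Taken row by row, 17 deposited rows met the rule for a pump gene, and 6 of them bore the name of that gene. Of the 16 rows tested, 8 were higher in ARF and 2 lower, against 23.6% and 22.6% of the 10919 deposited rows tested. The 8 include the Atp6v1b1 row, which only its ARF counts brought past the filter, so it had to differ. The 9 pump genes that could not be read fell in 2 groups. Atp6v0b, Atp6v1b2, Atp6v1c2, Atp6v1e2 and Atp6v1g3 had no row on their exons. Atp6v0c, Atp6v0d1, Atp6v1d and Atp6v1g2 lay only on rows shared with other genes. The nearest to being read was Atp6v0c, the proton-carrying ring subunit, with 85.0% of the exon bases of the Sbp row and a log2 fold change for that row of -0.09 (adjusted p = 0.576, edgeR on rows). On the other side of the rule, the Gm50269 row was accepted with 48 exon bases.

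Among themselves, the pump genes were most alike in the pairs Atp6v1e1 with Atp6v1h and Atp6v0a1 with Atp6v1c1. The root mean square difference of their centred log2 CPM over the 6 libraries was 0.078 and 0.11. Against 3921 genes with a mean of at least 10 CPM, the closest patterns outside the pump were Zfp964, Cnpy4 and Ndrg3 for Atp6v0d2 (0.088 to 0.093). They were Gstm2, Chmp5 and Epn3 for Atp6v1a (0.083 to 0.094) and Thap4, Alkbh6 and Zfp560 for Atp6v1f (0.059 to 0.071). For Atp6v1b1 the nearest were Kcnn3, Gm13652 and Efna4, at a wider distance (0.23 to 0.36). For Atp6v1c1, which fell, they were Ddx27, Rbm39 and Ythdf2 (0.028 to 0.040). With 2 groups in the data, this measure largely reflects the size of the change.

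Promoter sequence is shown for 3 genes that rose and 1 that fell. RefSeq promoters on GRCm38.p6 were matched for 9 of the 14 read genes; Atp6v0a2, Atp6v0d2, Atp6v1c1, Atp6v1g1 and Atp6v1h were not matched. Windows run from 250 bases before the start site to 20 after it. They were searched on both strands for 8 motifs: the E-box CACGTG with its longer forms TCACGTGA and GTCACGTG, which contain it, the forkhead forms TGTTTAC and TGTTTAT, the GATA form GATAAA, the AP-1 form TGACTCA and the CCAAT box. Capitals mark the E-box, its form TCACGTGA and the forkhead form TGTTTAC. The windows lie at chr16:44139240-44139509 for Atp6v1a (minus strand), chr17:26676146-26676415 for Atp6v0e (plus), chr6:83742767-83743036 for Atp6v1b1 (plus) and chr11:101010148-101010417 for Atp6v0a1 (plus).
Atp6v1a promoter: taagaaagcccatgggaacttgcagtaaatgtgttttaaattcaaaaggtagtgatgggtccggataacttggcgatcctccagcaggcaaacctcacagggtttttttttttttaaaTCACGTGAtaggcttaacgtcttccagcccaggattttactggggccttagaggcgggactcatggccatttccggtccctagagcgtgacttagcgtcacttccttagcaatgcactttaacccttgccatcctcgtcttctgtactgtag
Atp6v0e promoter: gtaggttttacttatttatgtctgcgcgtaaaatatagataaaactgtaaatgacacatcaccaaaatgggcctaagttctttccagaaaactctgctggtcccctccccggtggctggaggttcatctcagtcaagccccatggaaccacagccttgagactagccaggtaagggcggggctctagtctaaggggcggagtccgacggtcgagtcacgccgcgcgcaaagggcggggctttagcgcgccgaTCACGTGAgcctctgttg
Atp6v1b1 promoter: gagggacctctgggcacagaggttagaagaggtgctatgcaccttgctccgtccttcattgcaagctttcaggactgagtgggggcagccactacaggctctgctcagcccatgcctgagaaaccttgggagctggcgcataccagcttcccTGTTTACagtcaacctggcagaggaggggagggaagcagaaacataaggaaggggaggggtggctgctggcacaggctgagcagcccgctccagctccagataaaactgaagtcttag
Atp6v0a1 promoter: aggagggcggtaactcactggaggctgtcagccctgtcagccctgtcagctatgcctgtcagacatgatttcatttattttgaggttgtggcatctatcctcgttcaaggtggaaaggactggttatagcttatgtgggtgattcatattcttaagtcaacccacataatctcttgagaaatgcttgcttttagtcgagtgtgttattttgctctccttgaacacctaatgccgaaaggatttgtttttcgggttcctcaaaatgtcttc

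TCACGTGA, the palindromic E-box bound by the MiT/TFE factors that switch on lysosomal genes, begins 132 bases before the start of Atp6v1a and at base 3 of Atp6v0e. It also begins 4 bases before the start of Atp6v0d1. CACGTG begins 36 and 18 bases before the start of Atp6v0b. Neither of these genes was read by position. Of the 20 windows of pump genes, read or not, 3 held TCACGTGA and 4 held CACGTG. Among the same windows, 4 held CCAAT, 3 held GATAAA, 2 held GTCACGTG, 1 held TGTTTAC and 0 held TGTTTAT or TGACTCA. The 3 windows with GATAAA include those printed for Atp6v0e and Atp6v1b1, where it is not marked. Over the 32851 windows of the table, TCACGTGA is in 0.904% and CACGTG in 6.57%. TGTTTAC begins 98 bases before the start of Atp6v1b1 and is in 3.39% of windows. The windows of Atp6v0a1, Atp6v0a4 and Atp6v1f held none of the 8 motifs. In GENCODE M21, Atp6v0a1 begins upstream of its window, at chr11:101009452, and so does Atp6v0e, at chr17:26663231. Those first starts were not searched. The shares of the others were 2.13% for GTCACGTG, 4.36% for TGTTTAT, 9.26% for GATAAA, 4.77% for TGACTCA and 35.4% for CCAAT. A match describes letters in the window and does not show a bound site.

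Of 24 genes that help the pump assemble or respond to it, 6 were read and tested. In ARF 5 of them rose, or 83.3% against 25.1% of all genes tested, and 1 was not called, and the median log2 fold change was 0.69 beside 0.01 for all genes. Rragd, a GTPase that ties the lysosomal pump to mTORC1, was at 675, 850 and 861 CPM in healthy and 1757, 2045 and 1875 CPM in ARF (log2 fold change 1.25, adjusted p = 0.000164, edgeR). Dmxl1, Dmxl2 and Wdr7 are parts of the rabconnectin complex, which rejoins V1 to V0, and showed log2 fold changes of 0.95, 0.65 and 0.54. Slc38a9, the lysosomal arginine sensor, showed 0.73, and Ncoa7, a TLDc protein that binds V1, was not called (adjusted p = 0.999, edgeR). Without healthy replicate 1, 3 of the list were called higher. Of the subunit and accessory genes with other names (Tcirg1, Atp6ap1, Atp6ap2 and Rnasek), only Tcirg1, the a isoform of osteoclasts, was read. It held 6 counts in each group and was not tested.

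Most of the acid-base genes of the intercalated cell that could be read rose in ARF. Of 26 listed, 12 were read, 11 tested, 8 called higher and 2 lower, with a median log2 fold change of 1.43. These calls are 72.7% and 18.2% of those tested, against 25.1% and 24.9% of all genes. Their summed level was between 1472 and 1725 CPM in healthy and between 4209 and 4946 CPM in ARF. Slc4a1, the basolateral anion exchanger of acid-secreting cells and also the band 3 protein of red cells, was at 147, 306 and 213 CPM in healthy and at 1369, 1887 and 1574 CPM in ARF (log2 fold change 2.86, adjusted p = 7.4e-05, edgeR). Oxgr1, a metabolite receptor, showed 2.47, Aqp6, a channel of intracellular vesicles, 2.18, and Rhbg, an ammonia transporter, 2.16. Slc26a4 and Slc4a9, anion exchangers of bicarbonate-secreting cells, showed 1.17 and 1.05. The genes that fell were Car4, a membrane carbonic anhydrase also found in the proximal tubule (-2.14), and Gpr4, a proton-sensing receptor also found in endothelium (-1.03). Atp6v0a4, whose protein belongs to the same cells, changed by 0.44, below the 8 genes of this list called higher. Atp6v1b1, the B isoform of those cells, had a fitted change of 3.31. This ran from 2.81 to 7.14 when 1 library was left out, so Atp6v1b1 was not ranked against the list. It is given as a description, with 4 counts in the healthy libraries together.

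Markers of other cells changed as well, in both directions. All 5 principal cell markers read were called higher, including Scnn1g (log2 fold change 2.67), against 25.1% of all genes. Of 10 proximal tubule markers, 7 were called lower, including Slc34a1 (-2.62), against 24.9% of all genes, and 1, Keg1, was called higher (2.21). Macrophages, which carry a great deal of lysosomal pump, were represented by 6 of 13 markers; 4 of 5 tested were called lower and their sum was between 44.3 and 86.2 CPM in healthy and between 22.1 and 28.5 in ARF. Of the erythroid markers, 5 of 9 were read, with a sum between 175 and 825 CPM in healthy and between 27.3 and 76.0 in ARF and with Hbb-bt at 0; the 2 tested were called lower. Of 9 loop of Henle markers, 3 were tested, with 2 called higher, and of 9 distal convoluted and connecting tubule markers, 3 were tested, with 1 called higher and 2 lower. Endothelial markers gave 3 lower calls in 6 tested, and both neutrophil markers tested were called lower. Podocyte markers gave 1 higher and 1 lower call in 3 tested. All these lists stand against the same 25.1% higher and 24.9% lower of all genes. Lists with 2 or 3 tested markers are too small to set against those shares. The part of these marker changes in the pump genes' changes was not tested.

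Genes of the lysosome were called at shares near those of all genes. Of 54 listed, 23 were read and tested, 7 were called higher (30.4%, against 25.1% of all genes) and 6 lower (26.1%, against 24.9%), with a median log2 fold change of -0.08. Sort1, a sorting receptor, showed 2.04, Laptm4b, a lysosomal membrane protein, 1.28, and the enzymes Ctsf and Hexa 0.92 and 0.91. The proteases Ctsz, Ctsl and Ctss showed -1.61, -1.41 and -1.29, and the sulfatase Galns -1.28. Of the MiT/TFE factors and their upstream regulators, 7 of 9 were tested, 2 were called higher (28.6%, against 25.1% of all genes) and 3 lower (42.9%, against 24.9%): Mitf showed a log2 fold change of 2.09 and Rptor 0.55, and Fnip2, Tfe3 and Fnip1 showed -0.72, -0.59 and -0.55. The list of exchangers that share acid organelles with the pump had 13 genes, 5 read and 3 tested, with a median of -0.47. None of the 3 was called: Clcn6 showed -0.47 (adjusted p = 0.273, edgeR), Slc9a8 -0.54 (0.152) and Tmem9b -0.06 (0.762).

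**Figure D5:**
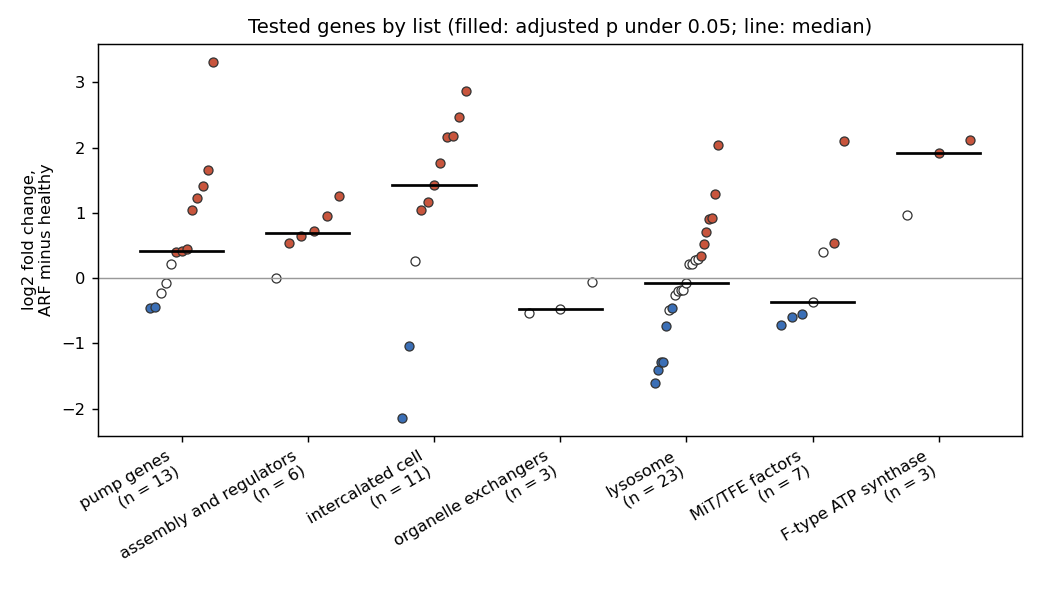
Log2 fold change (ARF minus healthy, vertical axis) of each tested gene by list, filled where called higher (red) or lower (blue) and open where not called, with the list's median as a line. The lysosome list lies on both sides of 0, and in the intercalated cell list the 2 genes below 0 were called lower.

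The mitochondrial relative of the pump was poorly read. Of 23 genes of the F-type ATP synthase, a rotary enzyme that makes ATP, 3 were read and tested and 2 were called higher: Atp5s, a coupling factor, at 23.0, 24.7 and 21.7 CPM in healthy and 105, 107 and 86.7 CPM in ARF (log2 fold change 2.11), and Atp5g1, a ring subunit with 11 counts in healthy and 66 in ARF (1.92). The 3 genes are too few to set against the 25.1% of all genes called higher.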

How the data were processed

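Kidney total RNA was extracted with Trizol and made into TruSeq RNA libraries, per the labels' protocols. The authors deposited counts per row for each library; featureCounts 2.0.1 was run on exon intervals grouped by name and without regard to strand, per the file headers, which name no build. Bowtie 0.12.2 and mm9 appear in the submitters' processing notes, and which aligner led to the counts was not given in the sources used here. A deposited table of the whole series was not used.

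Row intervals were intersected with GENCODE M21 basic exons on GRCm38 (bedtools 2.31.1, Python 3.11.15), because the 29.8% of rows that touch such an exon held 98.5% of the counts whatever the rows were named. A row was given to a gene that held at least 25 exon bases under it and a share of at least 0.9 of all exon bases under it, and rows of a gene were added: 12401 of 53546 rows, with 63.0% of counts.

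The counts were tested with edgeR 4.0.16 in R 4.3.3 (quasi-likelihood, TMM, filterByExpr, library totals over all rows, group as the only term, two-sided, Benjamini-Hochberg over all genes tested, called at adjusted p under 0.05) and, in 1 alternative, with DESeq2 1.42.0. The edgeR script was tested on simulated data. A separate fit covered all deposited rows. Means and SDs are over n = 3 libraries.

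Groups come from the diagnosis in the labels. Every readable pump gene is named, with up to 4 called genes a direction from each pathway list and the 3 genes closest in centred log2 CPM (prior count 2). Some further list genes are named by their markers or roles. The members and lists were chosen with earlier results of these data known. Libraries of a group differed beyond counting noise, so none was a repeat deposit. Results for 1 of the lists are not reported here.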

Additional observations from a re-analysis of the deposited data

How the results depend on the processing

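Atp6v0d2, Atp6v1a, Atp6v1f and Atp6v1c1 kept their direction and their call under every alternative run for them: DESeq2 size factors or its Wald test, scaling by total count, no filter on low counts, stricter assignment of rows, the replicate block and each library left out. Of 196 recomputed fold changes of pump genes, 176 kept their direction and side of the threshold, and of 154 recomputed counts of called genes, 143 stayed within 1.5 times the reported count. The 196 include refits on unchanged counts, such as those of a gene's only row. The rules of 100 exon bases or of no other gene's exons left the counts of Atp6v0d2, Atp6v1a, Atp6v1f and Atp6v1c1 unchanged. Stricter assignment by these rules could therefore hardly move those genes. The 154 include lists with 0 calls in the main fit. The accessory subunit list among them had 0 genes tested, so its counts could hardly move. With scaling by total count, Atp6v0a1 was at -0.27 and not called, Atp6v0a2 was called at 0.40, Atp6v0e2, not called in either fit, turned from -0.08 to 0.10, and 1 pump gene was called lower. With at least 100 exon bases required, Atp6v0e rested on the Neurl1b row and reversed to -0.24, and that row in the fit of all rows gave -0.23. The Plekhh3 row of Atp6v0a1 gave -0.35.

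With 1 library left out, the log2 fold change ran from -0.53 to -0.33 for Atp6v0a1, from 0.34 to 0.54 for Atp6v0a4, from 0.33 to 0.48 for Atp6v1e1 and from 0.29 to 0.51 for Atp6v1h, each losing its call in some of these fits, and from -0.22 to 0.070 for Atp6v0e2, not called in any of them. Pump genes called higher ran from 5 to 8 and lower from 1 to 2. Higher calls ran from 3 to 5 for assembly factors and regulators and from 1 to 2 for the F-type ATP synthase. The cause of these losses, beyond the smaller number of libraries, was not tested.

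Healthy and ARF libraries share replicate numbers, but the labels give no meaning to the number. Deviations of same-numbered libraries correlated at -0.07, -0.22 and -0.29 over 5246 genes, so the numbers were not taken as pairs. With the replicate block, 7 pump genes were called higher and 2 lower, Atp6v1h had a log2 fold change of 0.40 and was not called, and 1 gene of the F-type ATP synthase was called higher. Depth left Atp6v1fnb untested, with 2 counts in each group, and Atp6v1b1 had 4 counts in the healthy libraries together.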

Other observations

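Rows that bear a pump gene's name often lay elsewhere on GRCm38. For 8 of the 14 read genes, the row of that name did not lie on the gene's exons. The row named Atp6v1a held 79 counts in the healthy libraries together and 247 in ARF, whereas the row over Atp6v1a exons held 7329 and 26138. The row named Atp6v1h held 32 and 48 counts, against 2126 and 4343 over its exons. The row named Atp6v0a1 held 2524 counts in healthy and 1805 in ARF and lay on none of its exons. The row named Atp6v0c, a gene not read by position, held 3626 and 6110 counts and lay off its exons too, while the Sbp row, which covers 601 of its exon bases, held between 747 and 1785 counts per library.

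Counts of a row shared by a pump gene and a neighbour cannot be split between them. The row named 4932416K20Rik covers 916 exon bases of Atp6v0d1, the widely expressed d isoform, and a longer stretch of Hsd11b2, the enzyme that shields the mineralocorticoid receptor from glucocorticoids in principal cells. It rose with a log2 fold change of 2.76 (adjusted p = 5e-06, edgeR on rows). The Ces2b row, over 265 exon bases at the other end of Atp6v0d1 together with exons of Gm38250 and Agrp, showed 0.07 (adjusted p = 0.656). How much of either row belongs to Atp6v0d1 was not tested.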
